A study of Homo sapiens with 6 samples.

Results

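Wnt feedback and stem cell genes were followed in LoVo, a widely used human cell line of colorectal adenocarcinoma origin, treated with DCC-2036. The set had 10 members of the 19223 gene symbols measured, namely AXIN2, NKD1, RNF43, ZNRF3, LGR5, ASCL2, SP5, TCF7, LEF1 and NOTUM. Members were named by symbol with earlier results of these data known, and the transcript that stands for each was chosen by its mean level over the 6 libraries. RNA was sequenced from 3 Control libraries, at a DCC-2036 dose of 0 μM, and 3 libraries from cells given 2.5 μM DCC-2036, a tyrosine kinase inhibitor. The labels give 48 h of treatment, whereas the study's figure legend for these RNA data gives a shorter time. Each value is a normalized signal per RefSeq transcript that the authors had adjusted for sequencing depth, so the number of reads behind it is unknown. The totals of these values were 38997229, 39956227 and 40587145 for the Control libraries, and for DCC-2036 they were 43279603, 45957597 and 48023306.

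Wnt ligands bind Frizzled and LRP receptors and keep β-catenin from being degraded by a complex built on AXIN and APC. β-catenin then enters the nucleus and turns on target genes together with the TCF/LEF family of DNA-binding proteins. Several of these targets, AXIN2 and NKD1 among them, encode proteins that dampen the same pathway, which makes them feedback genes. In the intestinal crypt the pathway maintains stem cells that are marked by LGR5 and ASCL2, and most colorectal cancers carry a mutation that leaves it active.

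The deposited levels split the set before any comparison of treatments. A value of 10 was reached in every library by 7 members, AXIN2, ZNRF3, RNF43, TCF7, NKD1, NOTUM and SP5. The other 3 stayed below 10 in each library. LGR5, a receptor for R-spondins, was listed at 0 in all 6 libraries on all 3 of its transcripts. ASCL2, a transcription factor of crypt stem cells, was at 0 in the Control libraries and at 0.00326, 1.06 and 0.0139 in DCC-2036. LEF1, a TCF/LEF family member, had a value of 1.92 in Control replicate 1 and 0 in the remaining libraries, and none of its 4 transcripts was higher. The stem cell side of the name was therefore carried by genes at or near 0 in these cells, and the values that follow are those of the Wnt feedback genes, SP5 and TCF7. Members at this level were not tested.

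The promoters of 4 of the 10 members were in the RefSeq promoter table (build GRCh38.p14), which holds 250 bases before to 50 bases after each start. These were SP5, TCF7, RNF43 and LEF1. The windows are shown for SP5, the member with the second highest relative gain, for both starts of TCF7, the member that was lower, and for the upstream start of RNF43. Capitals mark matches, on either strand, to 1 of 4 motifs, namely CTTTGAA and also CTTTGAT as well as CTTTGTA and finally CTTTGTT, the letters that the TCF/LEF family is known to bind.
SP5 (chr2:170715087-170715386, plus strand): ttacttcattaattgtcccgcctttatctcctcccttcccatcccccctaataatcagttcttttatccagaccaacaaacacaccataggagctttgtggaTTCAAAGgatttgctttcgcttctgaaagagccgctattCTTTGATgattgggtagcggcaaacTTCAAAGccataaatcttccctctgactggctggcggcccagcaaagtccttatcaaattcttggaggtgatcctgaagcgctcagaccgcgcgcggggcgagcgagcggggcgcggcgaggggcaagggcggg
TCF7, upstream start (chr5:134115363-134115662, plus strand): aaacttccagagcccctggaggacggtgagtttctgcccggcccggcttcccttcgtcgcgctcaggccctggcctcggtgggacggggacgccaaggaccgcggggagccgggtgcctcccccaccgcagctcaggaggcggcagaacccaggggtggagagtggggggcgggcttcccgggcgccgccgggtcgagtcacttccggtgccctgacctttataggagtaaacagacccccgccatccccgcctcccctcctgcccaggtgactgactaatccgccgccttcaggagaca
TCF7, downstream start (chr5:134123368-134123667, plus strand): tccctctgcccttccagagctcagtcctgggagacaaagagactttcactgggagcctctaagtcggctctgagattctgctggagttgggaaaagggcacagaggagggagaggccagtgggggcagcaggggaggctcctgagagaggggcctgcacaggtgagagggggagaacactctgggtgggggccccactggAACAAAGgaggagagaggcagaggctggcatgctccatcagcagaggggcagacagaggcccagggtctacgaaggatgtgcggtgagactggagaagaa
RNF43, upstream start (chr17:58417485-58417784, minus strand): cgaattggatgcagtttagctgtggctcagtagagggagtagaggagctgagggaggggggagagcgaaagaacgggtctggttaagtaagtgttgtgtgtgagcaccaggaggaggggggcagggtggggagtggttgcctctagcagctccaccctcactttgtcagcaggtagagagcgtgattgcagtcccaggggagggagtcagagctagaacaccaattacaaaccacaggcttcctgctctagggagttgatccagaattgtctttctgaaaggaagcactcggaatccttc
The SP5 window held 3 matches, CTTTGAT on the gene's strand and CTTTGAA on the opposite strand at 2 places, all before the start. The downstream TCF7 window held 1 match, CTTTGTT on the opposite strand. The upstream TCF7 window, both RNF43 windows and the LEF1 window held 0. Of the 35116 windows of this length, 13.8% had at least 1 of the motifs, 1.58% at least 2 matches and 0.179% at least 3. Singly, CTTTGAA was in 4.43% of windows, CTTTGAT in 2.62%, CTTTGTA in 2.77% and CTTTGTT in 5.20%. A match describes the letters in the window and is not a measured binding site.

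The libraries were compared with one another before the members were. The first principal component of the log2 values held 83.1% of the variance and separated the groups. Control libraries lay at -54.8 to -54.2 on it, and DCC-2036 replicates 1, 2 and 3 were spread at 33.2, 55.0 and 75.5. The second held 8.8% and also spread the DCC-2036 libraries, with replicate 1 at -31.1, replicate 2 at -10.1 and replicate 3 at 29.5. The SD of a library's log2 deviations from its group mean was 0.165 to 0.183 in Control. In DCC-2036 it was 0.328 for replicate 1, 0.190 for replicate 2 and 0.355 for replicate 3, so replicates 1 and 3 lay farthest from their group mean. Member values are therefore also given without them where a call changed.

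Differences are on the scale of log2(value + 1), DCC-2036 minus Control, each with its standard error (SE). They come from limma fitted to the 12725 genes for which 3 or more libraries reached 10, and a gene is called higher or lower at a Benjamini-Hochberg adjusted p under 0.01. AXIN2 is left out of counts of calls, for the reason given with its values. Of the other 6 members that reached the filter, 4 were called higher, 1 was called lower and 1 was not called. Among all genes tested, 19.2% were called higher and 22.7% lower. Without any 1 Control library or DCC-2036 replicate 2, 2 of these 6 members were called higher and TCF7 was not called, and of all genes 928 to 1054 were called higher, against 2442, and 1514 to 1708 lower, against 2887. DCC-2036 values lay entirely above Control for 5 of the 7 members that reached the filter (AXIN2 among them), against 32.9% of all genes tested. They lay entirely below for 1 of these members, against 38.1%. The median difference was 0.91 over the 7 members and -0.09 over all genes. Because the members were named with results known, these counts describe the set and nothing is read from them. The labels do not say that the libraries came from separate cultures, so p-values measure only the spread between these samples, which may be technical. With 3 libraries against 3, an exact two-sided permutation test of a single gene cannot go below p = 0.1.

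**Figure D1:**
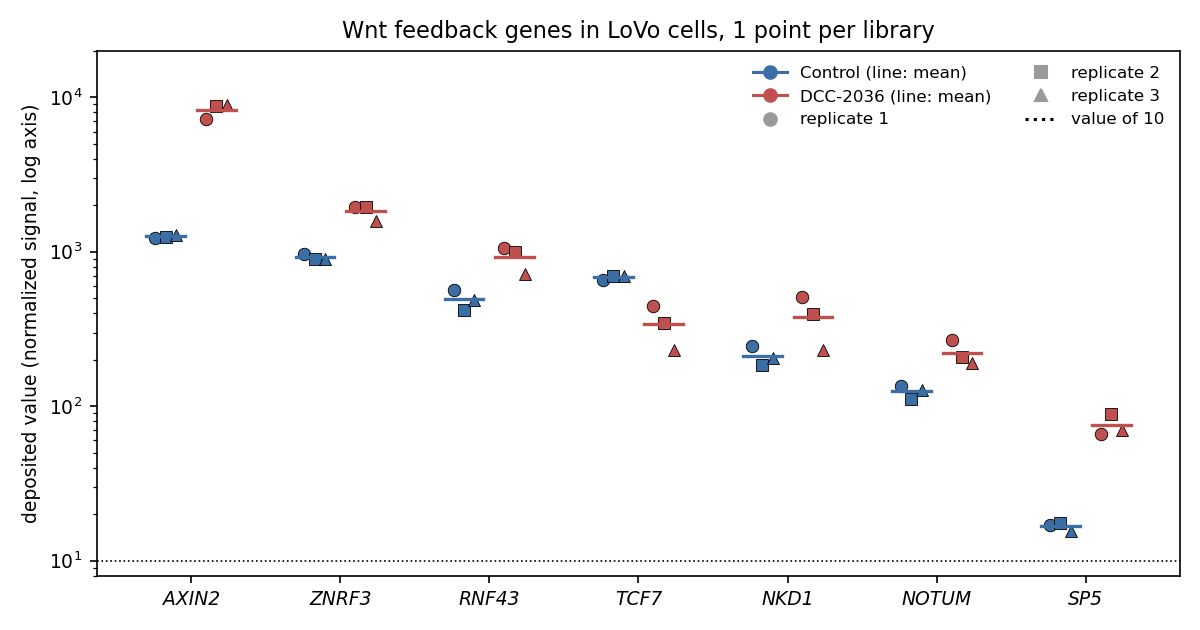
Deposited value (normalized signal, log axis) of the 7 members that reached a value of 10, in each of 3 Control libraries (blue) and 3 DCC-2036 libraries (red), with group means as lines and the value of 10 dotted. AXIN2 went from about 1257 to 8301, TCF7 is the member with all red points below the blue ones, and the NKD1 groups overlap.

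AXIN2 had the largest difference of the set. AXIN2 encodes a scaffold of the β-catenin destruction complex that is itself a widely used readout of Wnt signalling. Its values were 1231, 1255 and 1286 in Control replicates 1 to 3, against 7254, 8779 and 8871 in DCC-2036 replicates 1 to 3. The lowest DCC-2036 library was several times the highest Control library, and the groups did not overlap. The means were 1257 ± 27.6 and 8301 ± 908 (SD, n = 3 each), a ratio of 6.60. The log2 difference was 2.72 (SE 0.12), the 71st from the top of the genes tested. AXIN2 had been singled out earlier from this same comparison, so its values are a description and no test is given for it. The gene lies at chr17:65528563-65561647 on the minus strand (GENCODE 29, GRCh38), and 1 transcript (NM_004655.3) stood for it.

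SP5 showed the next largest difference of the set. SP5 encodes a zinc finger transcription factor that Wnt signalling induces and that can in turn repress Wnt targets. Its Control values were 16.9, 17.6 and 15.6, against 66.4, 88.5 and 70.5 with DCC-2036, with no overlap. The means were 16.7 ± 1.01 and 75.2 ± 11.8 (SD, n = 3 each), a ratio of 4.50. The log2 difference was 2.10 (SE 0.14), with a limma adjusted p of 0.000216, and all 3 DCC-2036 libraries were higher. SP5 lies at chr2:170715351-170718078 on the plus strand, and 1 transcript (NM_001003845.2) was listed. The promoter with 3 motif matches shown above belongs to it.

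ZNRF3 and RNF43, which encode related membrane E3 ubiquitin ligases that remove Frizzled receptors from the cell surface, both rose. ZNRF3 (NM_001206998.1, chr22:28883592-29057487, plus strand) had Control values of 970.4, 902 and 901, against 1954, 1961 and 1584 with DCC-2036. The groups did not overlap, and DCC-2036 replicate 3 was the lowest of its group. The ratio of the means was 1.98 and the log2 difference 0.98 (SE 0.12, limma adjusted p = 0.00109). RNF43 (NM_017763.5, chr17:58352500-58417595, minus strand) had Control values of 563, 422 and 488, against 1065, 999.9 and 722 with DCC-2036. Again the groups did not overlap and DCC-2036 replicate 3 was the lowest of its group. The ratio was 1.89 and the log2 difference 0.91 (SE 0.19, limma adjusted p = 0.00656). The RNF43 call was lost when any library other than DCC-2036 replicate 3 was left out (limma adjusted p 0.0127 to 0.0266, log2 difference 0.80 to 1.01), and with libraries scaled to equal totals (0.72, limma adjusted p = 0.0299). It was also lost without the filter on low values (limma adjusted p = 0.0150).

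NOTUM and NKD1 are secreted and intracellular inhibitors of the pathway. NOTUM encodes an enzyme that removes the lipid Wnt ligands need to bind their receptors. Its Control values (NM_178493.5, chr17:81952507-81961840, minus strand) were 135, 112 and 127, against 268, 207 and 189 with DCC-2036, with no overlap. The ratio of the means was 1.77 and the log2 difference 0.81 (SE 0.16, limma adjusted p = 0.00553), so NOTUM rose. Its call was lost without any 1 of the 3 Control libraries or without DCC-2036 replicate 2 (limma adjusted p 0.0160 to 0.0246, log2 difference 0.74 to 0.87), and with equal totals (0.62, limma adjusted p = 0.0308). It was also lost without the filter on low values (limma adjusted p = 0.0130).

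NKD1, which binds Dishevelled and is itself a Wnt target, did not pass the test. Its Control values (NM_033119.4, chr16:50548330-50649249, plus strand) were 245, 184 and 205, against 509, 397 and 231 with DCC-2036. Replicates 1 and 2 of DCC-2036 lay above all Control libraries, and replicate 3 lay within the Control range. The log2 difference was 0.78 (SE 0.29, 95% confidence interval 0.07 to 1.48, limma adjusted p = 0.0563). Without DCC-2036 replicate 3 it was 1.10 and was called higher (limma adjusted p = 0.00247), and without DCC-2036 replicate 1 it was 0.53 (limma adjusted p = 0.113).

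TCF7 was the member that fell. TCF7 encodes TCF1, a TCF/LEF family member that is both a partner of β-catenin and a Wnt target. Its Control values (NM_001346425.1, chr5:134114711-134151865, plus strand) were 653, 697 and 695, against 443, 345 and 232 with DCC-2036. All 3 DCC-2036 libraries were below all 3 Control libraries, and DCC-2036 replicate 3 was the lowest. The mean left was 49.9% of Control, and the log2 difference was -1.05 (SE 0.23, limma adjusted p = 0.00834). The TCF7 call was lost without any 1 of the 3 Control libraries or without DCC-2036 replicate 2 (limma adjusted p 0.0245 to 0.0309, log2 difference -1.09 to -1.03). It was also lost without the filter on low values (limma adjusted p = 0.0183) and with transcripts summed (-1.04, limma adjusted p = 0.0113). DCC-2036 replicate 3 was the lowest of its group for ZNRF3, RNF43, NKD1, NOTUM and TCF7, whereas replicate 1 was the lowest for AXIN2 and SP5. Fewer cells expressing a gene and less RNA per cell cannot be told apart in RNA from whole cultures.

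**Figure D2:**
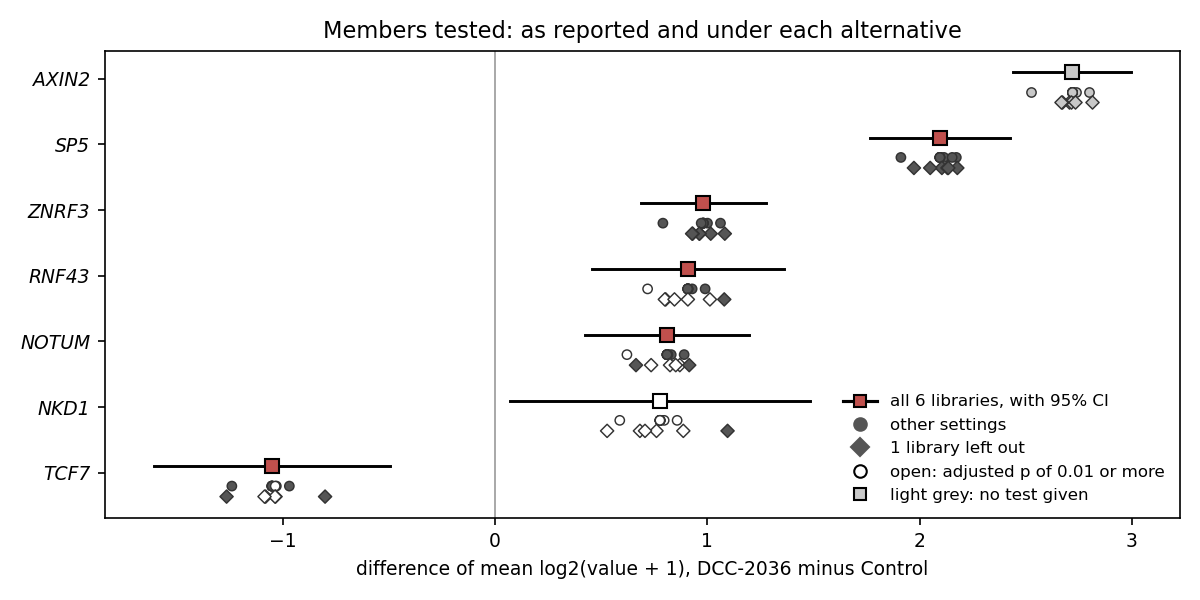
Log2 difference (DCC-2036 minus Control) of the 7 members, as squares with 95% confidence intervals from all 6 libraries, and below them the values under other settings (circles) and with 1 library left out (diamonds). Open symbols have a limma adjusted p of 0.01 or more, and AXIN2 is drawn in light grey because no test is given for it. The interval drawn for AXIN2 describes spread and is not read as a test. SP5 and ZNRF3 have filled symbols throughout, while RNF43, NOTUM and TCF7 have open ones at the same side of 0.

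Levels of members were compared per 1000 bases of transcript, with lengths from GENCODE 29. The highest mean values named for the lists below are not adjusted for length. A length was found for 6 of the members that were tested, but not for the TCF7 transcript in use. In Control the level per 1000 bases was 295 for AXIN2, 135 for ZNRF3, 89.0 for RNF43, 53.6 for NOTUM, 12.4 for NKD1 and 8.22 for SP5. In DCC-2036 it was 1949 for AXIN2, 268 for ZNRF3, 168 for RNF43, 95.1 for NOTUM, 37.0 for SP5 and 22.2 for NKD1. SP5 and NKD1 changed places in this order of levels, and the library values of neighbours in the order did not overlap within either group. Without the division by length they did not change places. The deposited mean of NKD1 was above that of SP5 in Control (211 against 16.7) and in DCC-2036 (379 against 75.2). The NKD1 level rests on a transcript model of 17105 bases, the longest of the 6.

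Several members had more than 1 RefSeq transcript in the table. Transcripts of 1 gene share reads, so their values are not independent and were not tested. RNF43 had 3, and in each library NM_001305544.1 was at 93.1 to 96.1% and NM_001305545.1 at 73.4 to 78.5% of the transcript in use. The log2 ratio of the group means was 0.90 to 0.93 over these 3. ZNRF3 had 2, the other (NM_032173.3) at 96.2 to 98.7%, with log2 ratios of 0.97 and 0.99. TCF7 had 7 within a narrow range, none below 93.6% of the transcript in use, with log2 ratios of -1.0 to -0.97. Of the TCF7 transcripts, NM_201632.4 and NM_213648.4 had identical values in all 6 libraries. No transcript of these 3 genes went against the others in direction, and the values do not separate the isoforms of TCF7.

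**Figure D3:**
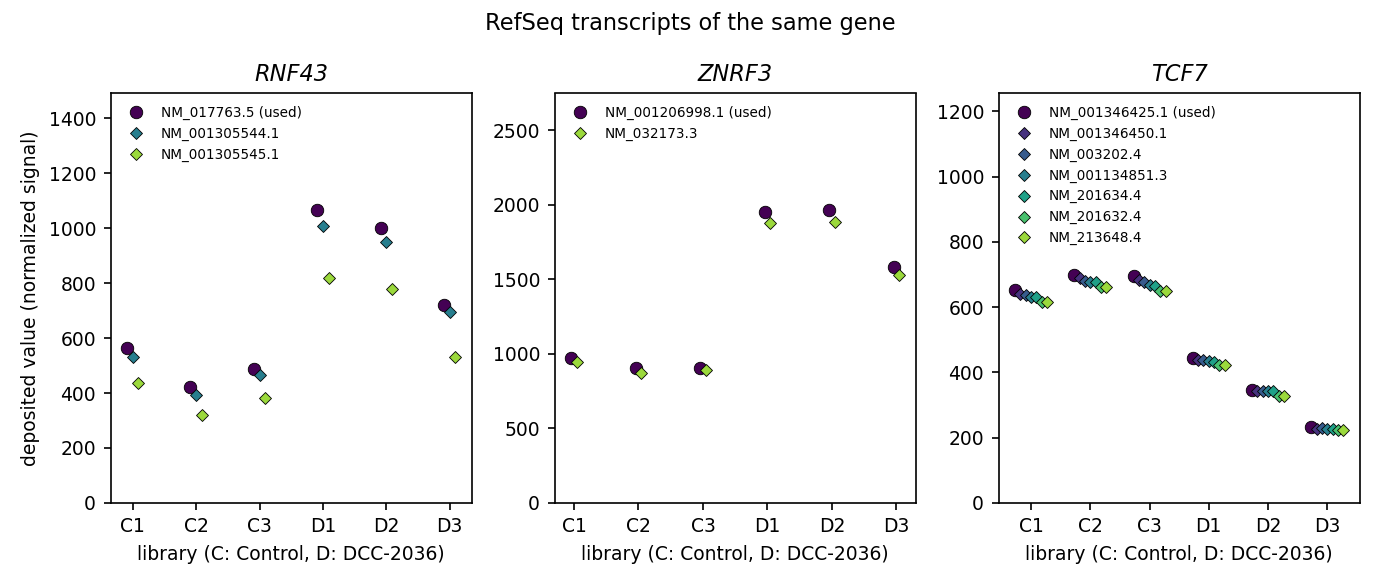
Deposited value (normalized signal, linear axes from 0) of each RefSeq transcript of RNF43, ZNRF3 and TCF7 in Control libraries 1 to 3 (C1 to C3) and DCC-2036 libraries 1 to 3 (D1 to D3), with the transcript in use as circles. Transcripts of a gene move together, and the RNF43 transcript NM_001305545.1 is at 73.4 to 78.5% of the one in use.

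Exons of some members overlap other genes in GENCODE 29, and the sources used here do not say how such reads were assigned or whether strand was used. RNF43 shares 20.3% of its exon bases with TSPOAP1-AS1 on the opposite strand, 1.91% with SUPT4H1 on the same strand and 57.6% with AC004687.2, a gene model on the same strand. AXIN2 shares 25.2% with the gene model AC004805.1 on the same strand. TCF7 shares 2.09% with SKP1 and NKD1 shares 0.385% with AC007608.1, both on the opposite strand. The part of such reads in the member values was not tested.

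Other genes of the Wnt pathway, like all genes tested, were called in both directions. Lists of them held 103 genes of the table, of which 72 were tested, 23 were called higher (31.9%, against 19.2% of all genes) and 14 lower (19.4%, against 22.7%), with a median difference of -0.14. These counts were 5 to 7 higher and 8 to 9 lower without any 1 Control library or DCC-2036 replicate 2, and 23 and 21 without DCC-2036 replicate 1. In the first of these fits all genes gave 928 to 1054 higher, against 2442, and 1514 to 1708 lower, against 2887. Without DCC-2036 replicate 1 they gave 2675 and 3507. The pathway counts include DKK1, for which no test is given below. The genes tested include WNT4, which reached the filter only through the Control libraries. Lists were written with earlier results known. Genes named from them had the largest absolute differences among called genes or the highest mean of the list. Others, APC among them, were relatives of members or pathway genes named in any case. Some called genes among these lost their call when 1 library was left out, and their adjusted p-values are given with the list. Calls were also lost without the filter on low values for WNT10A, TPBG, KREMEN2, BCL9L, HDAC1, KRT20 and CD4 (limma adjusted p 0.0105 to 0.0203), the last 2 being markers of the lists further below. With equal totals they were lost for WNT10A, KREMEN2 and HDAC1 (limma adjusted p 0.0127 to 0.0463), with transcripts summed for KREMEN2 (limma adjusted p = 0.0130) and with a trend in the fit for CD4 (limma adjusted p = 0.0197).

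Among Wnt ligands and their secretion genes, 12 of 21 were tested, 2 were called higher and 3 lower (median -0.76), or 6 lower without DCC-2036 replicate 1. WNT10B fell from 295 ± 14.8 to 65.9 ± 13.8 (SD, n = 3 each), a log2 difference of -2.17 (SE 0.17, limma adjusted p = 0.000287). WNT16, the ligand gene with the highest mean value, fell from 1581 ± 42.8 to 491 ± 129.9 (-1.72, SE 0.21, limma adjusted p = 0.00104). WNT10A rose from 23.5 to 60.3 (1.31, SE 0.28, limma adjusted p = 0.00757). PORCN, the enzyme that attaches lipid to Wnt ligands, rose from 90.5 to 173 (0.91, SE 0.15, limma adjusted p = 0.00267). The WNT10A call was lost without Control replicate 2 or 3 or DCC-2036 replicate 2 or 3 (limma adjusted p up to 0.0300), and the PORCN call without any 1 Control library or DCC-2036 replicate 2 (up to 0.0136).

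Of the Wnt and R-spondin receptors and R-spondins, 15 of 22 were tested, with a median of -0.32. Of these, 4 were called higher (26.7%, against 19.2% of all genes) and 5 lower (33.3%, against 22.7%). Without any 1 Control library or DCC-2036 replicate 2, 2 were called higher. LGR4, the relative of LGR5 that also binds R-spondins, had Control values of 195, 189.7 and 165, against 517, 472 and 490.2 with DCC-2036, with no overlap. It rose by 1.43 (SE 0.11, limma adjusted p = 0.000288), while LGR6, the third relative, was below 10 in every library. The Frizzled receptor genes FZD1, FZD5 and FZD2 fell, with log2 differences of -1.26, -1.22 and -1.20 (SE 0.12, 0.14 and 0.11, limma adjusted p 0.000460, 0.000885 and 0.000411). PTK7, a coreceptor with the highest mean value of the list, rose from 3403 ± 99.5 to 7002 ± 319.7 (1.04, SE 0.09, limma adjusted p = 0.000444). FZD4 and FZD7 were also called lower (limma adjusted p 0.00485 and 0.00277), but both lost their call without Control replicate 1 or 3 or DCC-2036 replicate 2, which left 3 genes of the list called lower. Without Control replicate 2, 4 were called lower. The Frizzled genes did not all fall. FZD6 was higher in each DCC-2036 library than in any Control library without being called (0.63, SE 0.19, limma adjusted p = 0.0255), and the groups overlapped for FZD3 and FZD9 (limma adjusted p 0.147 and 0.370). Those 5 Frizzled genes were named after their values were seen.

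Secreted and surface inhibitors were mostly low, with 12 of 18 below 10 in every library and 5 tested. Of these, 2 were called higher (40%, against 19.2% of all genes) and 1, DKK1, was counted as lower (20%, against 22.7%). DKK1, which blocks LRP receptors, fell from 13852 ± 745 to 2225 ± 277 (SD, n = 3 each), a log2 difference of -2.64 (SE 0.12). The study had singled out DKK1 from this same comparison, so its values are a description and no test is given for it. TPBG rose by 0.71 (SE 0.14, limma adjusted p = 0.00567) and KREMEN2, a receptor for DKK proteins, by 0.52 (SE 0.12, limma adjusted p = 0.00933). The TPBG call was lost without any 1 Control library or DCC-2036 replicate 2 (limma adjusted p up to 0.0263), and the KREMEN2 call whichever of the 6 libraries was left out (up to 0.0406). DKK1 and NOTUM both act on the pathway from outside the cell, and DKK1 fell while NOTUM rose.

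All 23 genes of the β-catenin destruction complex and Dishevelled list were tested, with a median of 0.38. Of these, 10 were called higher (43.5%, against 19.2% of all genes) and 3 lower (13%, against 22.7%). Without Control replicates 1, 2 and 3 in turn, 3, 2 and 2 were called higher (1054, 1000 and 992 of all genes, against 2442). Without DCC-2036 replicate 2, 3 were called higher (928 of all genes). CTNNB1, which encodes β-catenin and has the highest mean of the list, rose from 9186 ± 193 to 18404 ± 3002 (0.99, SE 0.14, limma adjusted p = 0.00166). APC rose from 873 to 1453 (0.73, SE 0.12, limma adjusted p = 0.00311). AXIN1, the close relative of AXIN2, had means of 618 and 575 and a log2 difference of -0.11 (SE 0.11, 95% confidence interval -0.37 to 0.15, limma adjusted p = 0.415, or -0.03 without DCC-2036 replicate 3). The AXIN1 and AXIN2 differences were thus far apart, although the gap between them was not tested. DVL1 and DVL2, which encode the Dishevelled proteins that carry the signal from Frizzled, fell by 1.68 (SE 0.19, limma adjusted p = 0.000762) and by 1.34 (SE 0.11, limma adjusted p = 0.000376). DVL3, the third of these genes, was not called and its groups overlapped (-0.16, SE 0.12, limma adjusted p = 0.278), and it is named after its values were seen. The casein kinase genes CSNK1G3 and CSNK1E rose by 1.26 (SE 0.21, limma adjusted p = 0.00298) and 1.19 (SE 0.18, limma adjusted p = 0.00203). NKD2, the relative of NKD1, was not called, with Control values of 324, 285 and 318 against 288, 201 and 103 under DCC-2036 (-0.76, SE 0.35, limma adjusted p = 0.102, or -0.36 without DCC-2036 replicate 3). Calls were lost without any 1 Control library or DCC-2036 replicate 2 for APC (limma adjusted p up to 0.0156) and CSNK1G3 (up to 0.0147), and without Control replicate 2 or 3 for CSNK1E (up to 0.0110).

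Of the nuclear partners of β-catenin, 17 of 19 were tested, with a median of -0.15. Of these, 5 were called higher (29.4%, against 19.2% of all genes) and 2 lower (11.8%, against 22.7%). Without any 1 Control library or DCC-2036 replicate 2, 1 was called higher, and without DCC-2036 replicate 1, 5 were called lower. The relatives of TCF7 and LEF1 were not called. TCF7L2 had means of 2176 and 1941 (-0.17, SE 0.10, limma adjusted p = 0.171), and TCF7L1 had means of 358 and 214 (-0.80, SE 0.26, limma adjusted p = 0.0335). Without DCC-2036 replicate 1, TCF7L1 was called lower (-1.07, limma adjusted p = 0.00267). BCL9L and PYGO2, coactivators of β-catenin, fell by 1.14 (SE 0.25, limma adjusted p = 0.00772) and by 0.92 (SE 0.15, limma adjusted p = 0.00266). CDC73, TLE1 and HDAC1, the last with the highest mean of the list, rose by 1.08, 1.00 and 0.56 (limma adjusted p 0.00358, 0.000668 and 0.00548). Without any 1 Control library or DCC-2036 replicate 2, calls were lost for BCL9L (limma adjusted p up to 0.0302), PYGO2 (up to 0.0132), CDC73 (up to 0.0174) and HDAC1 (up to 0.0275).

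Other reported Wnt targets moved in both directions. Of 29 in the table, 22 were tested, 7 were called higher (31.8%, against 19.2% of all genes) and 3 lower (13.6%, against 22.7%), and the median was 0.35, against -0.09. Without Control replicate 2 or 3, 4 were called higher. JUN rose from values of 245, 202 and 198 in Control to 819, 1497 and 2925 in DCC-2036, a spread among treated libraries far wider than that of AXIN2 (2.83, SE 0.43, limma adjusted p = 0.00220). BAMBI rose from 156 ± 4.50 to 528 ± 22.4 (log2 difference 1.75, SE 0.09, limma adjusted p = 0.000186). CD44, with the highest mean of the list, rose by 0.83 (SE 0.12, limma adjusted p = 0.00172). EPHB2 fell from 501 to 157 (-1.71, SE 0.21, limma adjusted p = 0.001) and FOSL1 from 1699.9 to 731 (-1.22, SE 0.14, limma adjusted p = 0.000902). The calls of JUN (limma adjusted p up to 0.0112) and CD44 (up to 0.0108) were lost without Control replicate 2 or 3.

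**Figure D4:**
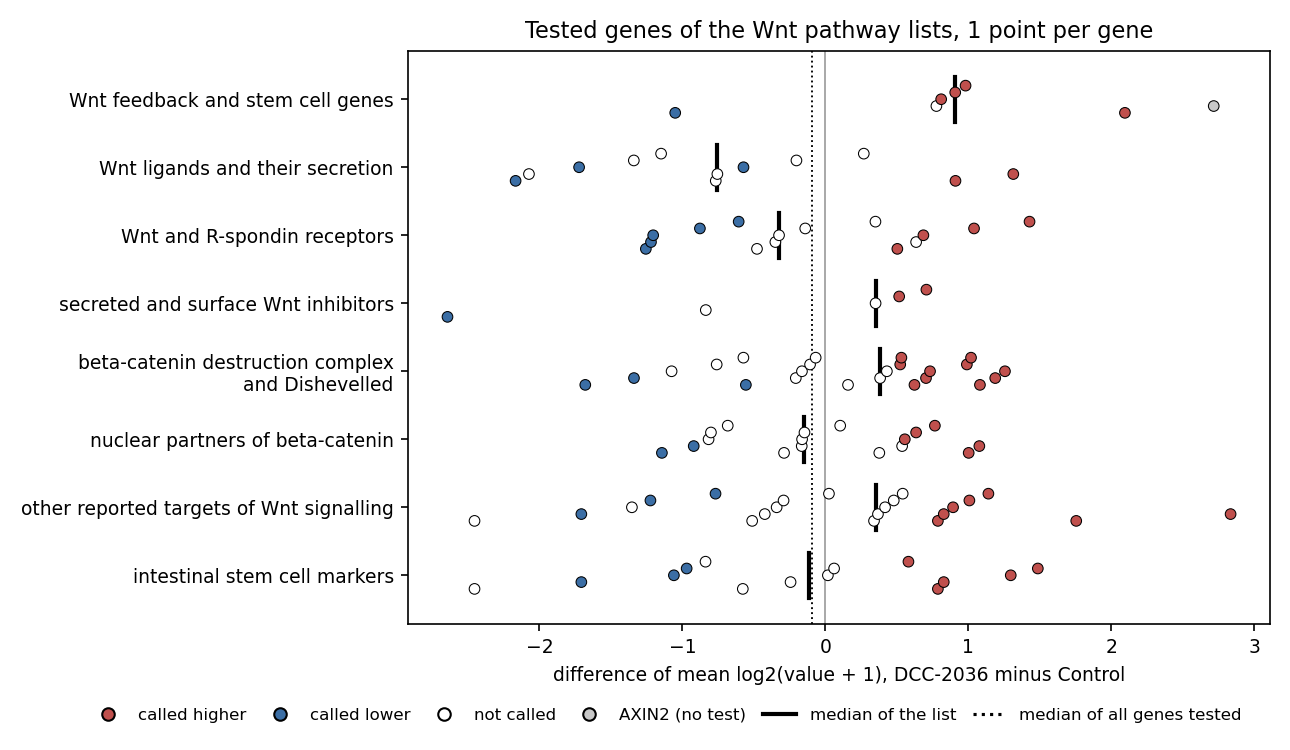
Log2 difference (DCC-2036 minus Control) of each tested gene, by list, with genes called higher in red, called lower in blue, not called in white and AXIN2, which has no test, in grey. DKK1, also given without a test, is drawn in blue. Short bars are list medians and the dotted line is the median of all genes tested, -0.09. The bar of the ligand list includes WNT4, which reached the filter only through the Control libraries, and is not read. The lists drawn are the members, the Wnt pathway lists and the intestinal stem cell markers. The members' median is 0.91, and each list drawn has genes on both sides of 0.

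Intestinal stem cell markers outside the set were also read, since LGR5 and ASCL2 were at or near 0. Of 21 in the table, 14 were tested (median -0.11) and 7 were below 10 in every library. Of those tested, 5 were called higher (35.7%, against 19.2% of all genes) and 3 lower (21.4%, against 22.7%). Without Control replicates 1, 2 and 3 in turn, 3, 2 and 2 were called higher, and without DCC-2036 replicate 2 there were 3. OLFM4, a marker of the same stem cells, was listed at 0 in all 6 libraries. LRIG1 rose from 52.8 to 146.8 (1.49, SE 0.20, limma adjusted p = 0.00146) and RGMB from 303 to 752 (1.30, SE 0.16, limma adjusted p = 0.00113). MEX3A fell from 449 to 215 (-1.06, SE 0.11, limma adjusted p = 0.000620), as did EPHB2, which is on both lists. OLFM4 falls outside the rule for named genes and was chosen after its values were seen.

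The genes nearest to AXIN2 in profile were KMT5B, ATF3, SAMD5, ASNS and HIST2H2BE, by the root mean square difference of centred log2 values over 6 libraries (0.116, 0.143, 0.158, 0.168 and 0.170). KMT5B had Control values of 455, 475 and 427, against 2217, 2899 and 3329 with DCC-2036. ATF3, a stress-induced transcription factor, had means of 178 and 1222, and ASNS, the asparagine synthetase, 1500.5 and 8183. None of the 5 belongs to the Wnt lists. With 6 libraries in 2 groups, likeness in profile reflects mainly the size of the difference between groups.

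The libraries were also checked for cell identity. EPCAM (4524 to 5961 in all libraries) and KRT8 (55603 to 125395) marked them as epithelial. Colorectal markers differed from one another, with ELF3 at 702 to 1259 and CDX2 at 213 to 365, whereas CDX1, VIL1 and CEACAM5 were below 10 in every library. Of 15 colorectal epithelium markers, 9 were tested and 6 were below 10. Of those tested, 2 (CDH1 and KRT8) were called higher (22.2%, against 19.2% of all genes). In the other direction 1 (KRT20) was called lower (11.1%, against 22.7%), or 2 without DCC-2036 replicate 1. The KRT8 call was lost without any 1 Control library or DCC-2036 replicate 2 (limma adjusted p up to 0.0146), and the KRT20 call without Control replicate 1 or 3 (up to 0.0176). The summed level of the list was 108168, 111808 and 118884 in the Control libraries and, with DCC-2036, 151773, 167087 and 192494. KRT8 had the highest mean of the list (59932 in Control, 108237 in DCC-2036), and KRT19 differed little (23490 and 24157). ELF3 was lower in each DCC-2036 library without being called (means 1214 and 821, limma adjusted p = 0.0104). DCC-2036 lay entirely above Control for 4 of the 9, against 32.9% of all genes tested. It lay entirely below for 2, against 38.1%, and the groups overlapped for 3. Nothing is read from these counts. Immune markers had 2 of 13 tested and 1 called lower (50%, against 22.7% of all genes). That was CD4 (-0.82, SE 0.17, limma adjusted p = 0.00616), whose call was lost without any 1 Control library or DCC-2036 replicate 2 (up to 0.0262). CD68 had the highest mean value (means 245 and 240.4), PTPRC and CD3D were at 0 in all libraries, and the list summed to 296 to 341 in Control and 269 to 368 in DCC-2036. Stromal and endothelial markers had 4 of 12 tested and 0 called by limma (2 at an unadjusted p under 0.05, and 1 called lower without DCC-2036 replicate 3), with the highest mean value for COL1A1 (376 and 457, limma adjusted p = 0.0902), and summed to 403 to 483 and 478 to 588. EPCAM, ELF3, KRT19, CDX1, VIL1, CEACAM5, PTPRC and CD3D are also outside the naming rule and were chosen after their values were seen.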

How the data were processed

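RNA of LoVo cells was measured in 3 Control and 3 DCC-2036 libraries, grouped by their titles. The authors deposited a normalized signal per RefSeq transcript, adjusted to a common depth. The aligner, the counter and the genome build are not given in the sources used here, and reads could not be recovered, so depth is unknown. Their table has 3 further columns with their own comparison of the groups (fold change, p-value and q-value), which were not used. The table had 45006 rows, of which 4524 were at 0 in all libraries, and 25 symbols were written as dates.

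Per symbol, the transcript with the highest mean was kept. A count test had been planned for whole counts. Because the values are signal, limma 3.58.1 (R 4.3.3) was run on log2(value + 1), two-sided and without covariates, for 12725 genes with 10 or more in 3 or more libraries, with Benjamini-Hochberg adjustment over all of them. The code was tested on simulated data. Lengths and locations came from GENCODE 29 and promoters from RefSeq (GRCh38.p14). Figures were drawn with matplotlib 3.10.9 in Python 3.11.15. Members, lists, tests and alternatives were chosen with earlier results of these data known. Genes named are all members, up to 4 called genes with the largest absolute difference and the highest-mean gene of each list, 9 relatives and pathway genes named in any case, and the 5 genes nearest to AXIN2. Alternatives were 3 scalings, another pseudocount, other filters, a replicate block, limma with trend, sums over transcripts, each library left out and an adjusted p limit of 0.05.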

Additional observations from a re-analysis of the deposited data

How the results depend on the processing

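Of the members, SP5 (log2 difference 1.91 to 2.18) and ZNRF3 (0.79 to 1.08) kept their direction and call in all 15 alternatives for each gene. AXIN2, given without a test, ranged from 2.53 to 2.81. RNF43, NOTUM and TCF7 kept their direction and lost their call in 8, 7 and 7 of the 15. Of the 6 members other than AXIN2 that were tested, those called higher, 4 as reported, were 2 with equal totals, 2 without the filter on low values, and 2 to 5 with 1 library left out. The members called lower, 1 as reported, were 0 without the filter, 0 with transcripts summed, and 0 to 1 with 1 library left out. Genes called over all, 2442 higher and 2887 lower, ranged from 928 to 2675 and from 1514 to 3507 with 1 library left out, and the other pathway genes, 23 and 14, from 5 to 23 and from 8 to 21. At an adjusted p under 0.05, 22 of the 72 pathway genes tested were called lower. Of all 12725 genes, 4290 were called lower at that limit, against 2887 as reported. Leaving out a library leaves fewer samples and the unfiltered fit tests more genes (16667), and otherwise the cause was not tested.

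With the replicate block, 2 members other than AXIN2 were called higher and 0 lower, 1202 and 1909 of all genes, and 8 and 9 of the other pathway genes. The numbers do not pair the libraries: the correlations of deviations of same-numbered libraries were 0.081, -0.0352 and -0.00329, so the block costs degrees of freedom and was kept as an alternative.

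Equal totals moved the median of all genes from -0.09 to -0.28 and the split to 1716 higher and 3388 lower, 33.6% higher against 45.8% as reported. The median of ratios turned the split the other way, to 2710 higher and 2634 lower (50.7% higher, median -0.0094), so which direction had more calls depends on the scaling. The sign turned for CDX2 without DCC-2036 replicate 3 (-0.2771 to 0.1091 with 1 library left out) and for CD68 (0.0451 with the median of ratios, -0.1507 to 0.071 with 1 library left out), neither of them called.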

Other observations

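Markers of differentiated intestinal cells were mostly low, 25 of 35 below a value of 10 in every library and 10 at 0 throughout. Of the 9 tested, 3 were called lower (33.3%, against 22.7% of all genes). TRPM5 and POU2F3 reached the filter only through the DCC-2036 libraries, where they are higher, so no median is given. POU2F3 is named for this reason only. With a value of 10 or more required in every library, 1 was called higher and 3 lower. Under the filter used elsewhere, 1 was called lower without Control replicate 1 or 3. TRPM5, an ion channel of tuft cells, had Control values of 0, 2.72 and 0.903, against 24.0, 31.6 and 62.2 with DCC-2036. It reached the filter only through the DCC-2036 libraries, where it is high, so no test is given for it. No ratio is given either, since its Control values include 0. FCGBP, a goblet cell gene, fell from 195 to 72.4 (-1.42, SE 0.11, limma adjusted p = 0.000314) and KRT20, a keratin of differentiated epithelium, from 53.1 to 23.4 (-1.15, SE 0.21, limma adjusted p = 0.00427), the latter losing its call without Control replicate 1 or 3. ALPP, a placental alkaline phosphatase, rose from 91.2 to 185 (1.01, SE 0.13, limma adjusted p = 0.00111). CDX2, an intestinal transcription factor with the highest mean of the list, had means of 297 and 286 (-0.09, SE 0.20, limma adjusted p = 0.724).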
